A study of Mus musculus with 15 samples.

Results

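The 10 genes described here code for proteins of the spectrin-actin membrane skeleton and its membrane attachments: the pointed-end caps Tmod1 and Tmod3, the spectrins Sptan1, Sptb and Sptbn1, the ankyrins Ank2 and Ank3, the 4.1-family protein gene Epb41l1, the adducin Add1, and the periaxin gene Prx. They were chosen by name, and all 10 were found among the 14615 gene symbols of the table, 1 of them (Epb41l1) under the older symbol Epb4.1l1. Together they held 101 of its 48134 transcripts, of which 60 were reference transcripts and 41 were variants assembled from the reads.

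The study measured RNA by sequencing in lenses dissected from wild-type C57BL/6NTac mouse embryos from 4 stages between embryonic days (E) E10.5 and E16.5, spaced 2 days apart, and in whole embryos of the same strain, called whole body. Each of the 5 groups had 3 libraries, which the labels call biological replicates. The pool behind a library was 50 lenses for E10.5, 29 for E12.5, 18 for E14.5 and 17 for E16.5. By their labels the whole-body libraries span days E10.5 to E12.5, so no whole-body library matched the E14.5 and E16.5 lenses in age. Whole lenses hold epithelium and fibre cells together, and whole embryos hold every tissue. Values are FPKM (fragments scaled by transcript length and by a library size whose setting is not given), summed over a gene's transcripts. The read depth behind them is unknown, so no counting interval can be given.

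The membrane skeleton lies under the plasma membrane as a net of spectrin heterotetramers, each made of α and β chains, that are tied together at short actin filaments. Tropomodulins cap the slow-growing ends of these filaments, adducin binds their fast-growing ends and recruits spectrin, 4.1 proteins strengthen the contact of spectrin with actin, and ankyrins hold β spectrin to membrane proteins. In the lens, the net lines the fibre cells, where it is tied to their elongated hexagonal shape and close packing, and periaxin, best known from the myelin sheath of Schwann cells, sits at the fibre cell membrane too.

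The sequences that carry the transcript results are given first. The exons are optional coding exons of Sptan1 and Add1 that were included more often, on average, in E16.5 lens than in E10.5 lens or whole body. They are read from the mm10 genome with GENCODE vM21 exon positions, 5′ to 3′, with the exon in capitals and 15 bases of the neighbouring exons in lower case. The 60-base exon 23 of Sptan1 lies at chr2:30001100-30001159 and the 15-base exon 37 at chr2:30014158-30014172, both on the plus strand. The 37-base exon 15 of Add1 lies at chr5:34629136-34629172 on the plus strand, and 35 of its bases are coding.
Sptan1 exon 23: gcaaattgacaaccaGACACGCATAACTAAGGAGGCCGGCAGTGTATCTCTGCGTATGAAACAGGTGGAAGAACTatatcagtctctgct
Sptan1 exon 37: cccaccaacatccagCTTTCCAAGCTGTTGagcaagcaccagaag
Add1 exon 15: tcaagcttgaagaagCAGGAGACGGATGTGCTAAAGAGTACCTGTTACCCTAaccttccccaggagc

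The promoters are those of the Prx and Sptb starts whose transcripts had far more FPKM in later lens than in whole body. They are the 250 bases before the start given by RefSeq (GRCm38.p6), with capitals for the motif letters found by a search for CACCC (named for Klf factors) and AACAAT (named for Sox factors) on both strands, so that a reverse match of CACCC reads GGGTG. The Prx window is chr7:27499074-27499323 on the plus strand and the Sptb window is chr12:76710548-76710797 on the minus strand.
Prx upstream start: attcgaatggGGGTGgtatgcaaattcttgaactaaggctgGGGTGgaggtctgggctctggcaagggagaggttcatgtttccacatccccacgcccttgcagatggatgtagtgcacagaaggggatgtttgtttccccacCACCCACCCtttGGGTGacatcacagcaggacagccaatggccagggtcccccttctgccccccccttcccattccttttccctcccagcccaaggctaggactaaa
Sptb long-form start: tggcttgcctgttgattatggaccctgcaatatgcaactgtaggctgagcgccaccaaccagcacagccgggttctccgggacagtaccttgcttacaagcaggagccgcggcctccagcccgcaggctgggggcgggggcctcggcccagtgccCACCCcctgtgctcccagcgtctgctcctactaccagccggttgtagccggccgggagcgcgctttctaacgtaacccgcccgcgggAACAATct

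By E16.5, 9 of the 10 genes were higher in lens than in whole body and 1, Tmod3, was lower. The E16.5 lens exceeded whole body in mean FPKM by 34.9-fold for Prx, 25.5-fold for Ank2, 19.97-fold for Sptb, 16.6-fold for Tmod1, 9.10-fold for Sptbn1, 7.90-fold for Sptan1 and 4.15-fold for Epb41l1, but by only 2.00-fold for Ank3 and 1.83-fold for Add1. At E10.5 the picture was different: 1 gene was higher in lens (Sptan1), 3 were lower (Tmod1, Sptb and Ank2) and 6 were not called. A gene was called at an adjusted p under 0.05, from limma on log2(FPKM + 1) with Benjamini-Hochberg adjustment over 14532 genes, and log2 fold changes below are on that scale, which understates the change of low genes.

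The counts are read against those of all genes tested. In E16.5 lens against whole body, 36.8% of all genes were called higher and 43.4% lower, and the median log2 fold change was 3.08 over the 10 genes and -0.11 over all genes. With a 2-fold minimum, 7 of the 10 were higher and 1 lower, beside 18.5% and 26.2% of all genes. E14.5 lens against whole body gave the same counts beside 35.7% and 42.6% of all genes, and with the 2-fold minimum beside 16.4% and 25.4%. In E12.5 lens, 8 were higher than in whole body and 1 lower, beside 32.3% and 37.1%, and 6 and 1 by 2-fold, beside 11% and 17.7%. At E10.5 the 1 higher and 3 lower stood beside 24.6% and 31.2% of all genes, and 0 higher and 2 lower by 2-fold beside 6.48% and 13.6%, so that stage did not set the 10 genes apart by count. These 4 comparisons share the same whole-body libraries.

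The lens comparisons gave a like picture. E16.5 lens against E10.5 lens had 9 genes higher and 1 lower, beside 37.2% and 36.7% of all genes (7 and 1 by 2-fold, beside 17.2% and 18.2%), with a median log2 fold change of 2.87 against -0.01 over all genes. The test of any change over the 4 lens stages (moderated F test) called 10 of 10, where 77.3% of all genes were called, so that count alone says little. In bulk RNA, fewer cells of a type and less RNA per cell cannot be told apart, and a rise along the stages was accompanied by the summed level of lens fibre markers, 188 to 298 FPKM in E10.5 lens, 16563 to 31500 in E12.5 lens, 81592 to 93820 in E14.5 lens and 120893 to 153139 in E16.5 lens, against 2.44 to 2.72 in whole body. The part of that shift in the members' levels was not tested.

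**Figure D1:**
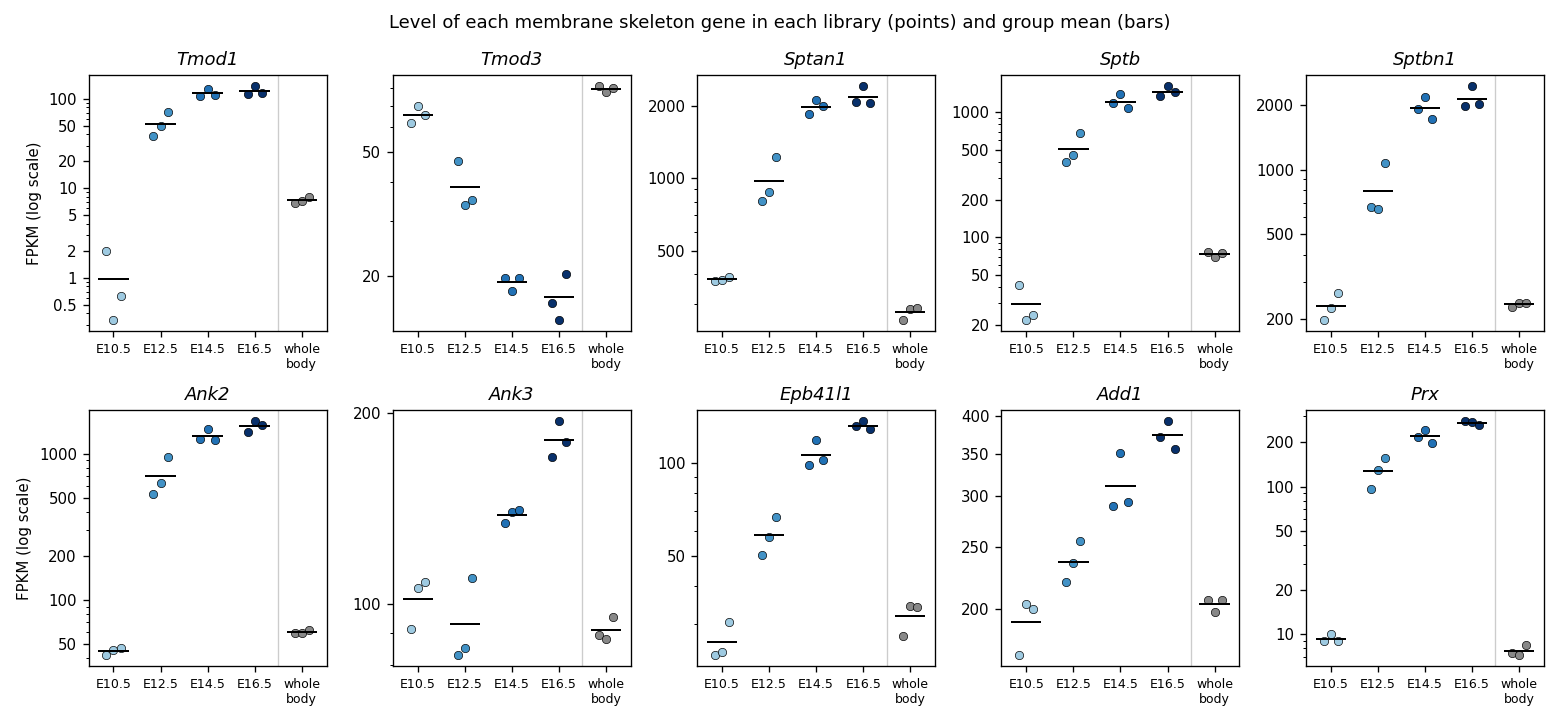
FPKM of the 10 genes (log axis, which differs between panels) in each library of the 4 lens stages and whole body; points are libraries and bars are group means of 3. All E16.5 lens libraries lie above all whole-body libraries for 9 genes and below them for Tmod3, while in E10.5 lens Tmod1, Tmod3, Sptb and Ank2 lie below whole body.

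FPKM sums ran from 707562 to 1629915 over the 15 libraries, and libraries of a group correlated with each other at r of 0.9797 to 0.9938 over genes. Whole body held neurons and muscle, of which the lens libraries held little. Summed neuron markers were at 13.9 to 35.9 FPKM in lens against 919 to 998 in whole body. Muscle markers were at 6.85 to 27.1 against 578 to 614. Other lists went the other way in E10.5 lens, where endothelium markers summed to 604 to 656 FPKM against 324 to 330 in whole body. Macrophage markers there summed to 126 to 152 FPKM against 35.0 to 39.8, and pigment cell markers to 20.4 to 65.4 against 3.98 to 5.13. In E16.5 lens these sums were 105 to 168, 5.86 to 16.1 and 8.61 to 15.3 FPKM. The pigment sums include Slc45a2, read under the symbol Aim1 by a synonym match that was not checked and may be another gene. That entry was at 4.20 FPKM in E16.5 lens and 2.16 in whole body. The E10.5 pigment sum was led by Pmel, at 27.6 FPKM, and Dct, at 16.3. All 14 erythroid markers were measured, and their sum was 2245 to 5146 FPKM in E10.5 lens, 3768 to 8265 in E12.5 lens, 512 to 1025 in E14.5 lens and 423 to 739 in E16.5 lens, against 7670 to 9801 in whole body. Neural retina markers summed to 142 to 152 FPKM in E16.5 lens, against 1197 to 1395 in E10.5 lens and 99.5 to 111 in whole body. The E16.5 sum was mostly Six3, at 118 FPKM, and the E10.5 sum mostly Sfrp2, at 1019. Periocular mesenchyme markers summed to 172 to 233 in E16.5 lens, against 349 to 2247 in E10.5 lens, highest in replicate 3. Their E16.5 sum was mostly Pdgfra, at 189 FPKM, which the lens epithelium list also holds. Leaving out the crystallins and making library totals equal lowered the median over all genes in E16.5 lens against whole body to a log2 value of -0.58, and the share of called genes that were higher to 28.0%, against 45.9% with the deposited scaling. It gave 28.8% against 45.6% for E14.5 lens and 35.1% against 46.5% for E12.5 lens, both over whole body, 30.5% against 50.3% for E16.5 over E10.5 lens, 40.4% against 53.1% for E12.5 over E10.5 lens, and 35.1% against 59.7% for E16.5 over E14.5 lens. Quantile scaling gave 54.1% against 44.1% for E10.5 lens over whole body and 46.5% for E16.5 over E14.5 lens. With crystallins left out, the 10 genes still gave 9 higher and 1 lower in E16.5 lens against whole body, with Prx at 4.46, Ank3 at 0.46, Add1 at 0.34 and Tmod3 at -2.67. With reference transcripts only, the calls on Ank2 (1.05) and Epb41l1 (0.72) in E16.5 lens against whole body were lost.

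The tropomodulins exchanged places in the lens. Tmod1 (mm10 chr4:46038935-46116032, plus strand) codes for the cap of red cells and muscle. It had 1.98, 0.34 and 0.62 FPKM in the 3 E10.5 lens libraries, 37.95, 49.96 and 70.2 in E12.5 lens, 107, 129 and 109 in E14.5 lens, and 113, 137 and 116 in E16.5 lens, against 6.91, 7.14 and 8.04 in whole body. The E10.5 lenses all lay under whole body and the later lenses all above it, with no overlap.

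Tmod1 was 7.51-fold higher in whole body than in E10.5 lens (log2 fold change of lens over whole body -2.16 ± 0.25 SE, adjusted p = 2.95e-06, limma). By E12.5 it was 53.8-fold above the E10.5 lens level (log2 fold change 4.80, adjusted p = 8.94e-10), and by E16.5 125-fold above it (6.04, adjusted p = 1.86e-11). These folds rest on E10.5 replicate 1, without which the E10.5 mean was 0.48 FPKM in place of 0.98, whole body was 15.3-fold above E10.5 lens, and E12.5 and E16.5 lens were 109.8-fold and 254-fold above it. That library had the highest erythroid marker sum of its stage (5146 FPKM), whose part in this was not tested. The step to E14.5 added 1.15 on the log2 scale (adjusted p = 0.00164), and the last step was 0.08 (adjusted p = 0.903) with overlapping libraries.

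Tmod3 (chr9:75497707-75559657, minus strand) codes for the widely expressed member of the family. Its libraries read 61.7, 70.1 and 65.5 FPKM in E10.5 lens, 46.8, 33.9 and 35.2 in E12.5 lens, 19.8, 18.0 and 19.8 in E14.5 lens, and 16.46, 14.53 and 20.4 in E16.5 lens, against 81.0, 77.75 and 79.9 in whole body. Every lens library was under every whole-body library, and the E14.5 and E16.5 lenses overlapped each other.

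At E16.5 Tmod3 averaged 17.1 ± 2.99 FPKM in lens and 79.6 ± 1.66 in whole body (SD, n = 3 each), 4.65-fold lower in lens (log2 fold change -2.16 ± 0.12 SE, adjusted p = 3.83e-10, limma). Against E10.5 lens it was 3.84-fold lower (-1.89, adjusted p = 2.71e-09). Tmod1 made up 1.51 ± 1.404% of the summed FPKM of Tmod1 and Tmod3 in E10.5 lens, 57.0 ± 11.1% in E12.5 lens, 85.6 ± 1.87% in E14.5 lens and 87.6 ± 2.67% in E16.5 lens, against 8.47 ± 0.644% in whole body (SD, n = 3). Tmod1-201, its main transcript, held 67.4% of the gene in E16.5 lens, 60.4% in E10.5 lens and 76.8% in whole body, and Tmod3 had 1 transcript.

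Of the 4 other genes with values in the list of tropomodulins and leiomodins, none was higher in E16.5 lens than in whole body and 3 were lower. The lower count was 4 after leaving out crystallins and equalising totals, and 1 under quantile scaling. The 3 leiomodins Lmod1, Lmod2 and Lmod3 were under 1 FPKM in every E16.5 lens library, so their values there lay near the floor. Tmod2, of neurons, was at -0.16 against whole body and at 1.09 against E10.5 lens on the log2 scale.

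Sptan1 (chr2:29965560-30031451, plus strand) codes for αII spectrin, the α chain of most cells other than red cells, and had the highest mean of the 10 at every lens stage and in whole body. It had 374, 376 and 387 FPKM in E10.5 lens, 802, 881 and 1231 in E12.5 lens, 1854, 2115 and 1997 in E14.5 lens, and 2091, 2416 and 2065 in E16.5 lens, against 257, 285 and 289 in whole body. Each stage lay above whole body, the E14.5 and E16.5 libraries overlapped, and from E12.5 on so did those of Sptan1 and Sptbn1.

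Sptan1 ranked 48th of the 14532 genes in mean FPKM in E16.5 lens, against 344th in whole body. The log2 fold change of lens over whole body was 0.45 ± 0.13 SE in E10.5 lens (adjusted p = 0.00903, limma), 1.78 in E12.5 lens, 2.84 in E14.5 lens and 2.98 in E16.5 lens (adjusted p = 2.48e-11). The E10.5 call was lost with replicate 2 as the only E10.5 library (0.44, adjusted p = 0.0986).

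The forms of Sptan1 changed along with its level. Sptan1-203, which carries both optional exons printed above and codes for 2477 residues, held 28.8%, 37.9% and 24.8% of the gene's FPKM in the E10.5 libraries, 49.8%, 56.6% and 53.2% in E12.5 lens, 68.7%, 70.4% and 72.0% in E14.5 lens, and 69.9%, 76.4% and 68.1% in E16.5 lens, against 28.4%, 32.9% and 31.5% in whole body. The later stages lay above both E10.5 lens and whole body without overlap.

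Sptan1-201, of 2452 residues with neither exon, ran the other way, with 57.7% in E10.5 lens, 26.2% in E12.5 lens, 9.38% in E14.5 lens and 9.18% in E16.5 lens, against 53.4% in whole body (means of 3). A fit of transcript shares in percent of the gene (limma, Benjamini-Hochberg over 38474 transcripts of 8677 genes, chosen after the data were seen) put Sptan1-203 40.5 ± 3.76 percentage points higher in E16.5 lens than in whole body (SE, adjusted p = 1.66e-05) and Sptan1-201 44.2 points lower (fit value -44.2, adjusted p = 7.69e-06). In FPKM, Sptan1-201 itself was not called, at 198 ± 41.8 in E16.5 lens against 219 ± 5.35 in E10.5 lens (SD, n = 3 each, log2 fold change -0.17, adjusted p = 0.379, limma), while Sptan1-203 stood at 1571 ± 240.1 against 115 ± 24.1.

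Sptan1-204, of 2457 residues with the 15-base exon only, was listed at 0 in E10.5 lens and whole body and held 17.9 ± 1.68% in E16.5 lens (share fit, adjusted p = 0.000965 against whole body and 0.00246 against E10.5 lens). Sptan1-202, of 2472 residues with the 60-base exon only, was listed at 0 from E12.5 on, and held 8.35% in E10.5 lens and 13.2% in whole body.

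Summed by exon over the reference transcripts that span it, the 15-base exon was present in 31.7 ± 7.09% in E10.5 lens, 73.3 ± 6.40% in E12.5 lens, 90.5 ± 0.734% in E14.5 lens and 90.7 ± 2.65% in E16.5 lens, against 32.2 ± 2.39% in whole body. The 60-base exon was present in 40.3 ± 0.266%, 54.4 ± 3.85%, 71.6 ± 1.505% and 72.4 ± 4.33% at the same stages, against 45.6 ± 4.62% in whole body (SD, n = 3). The E10.5 lens had shares of both exons near those of whole body, and by E16.5 the 15-base exon was in more of the gene than the 60-base exon. These shares come from the assembler's division of reads among transcripts, and were not tested by exon.

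**Figure D2:**
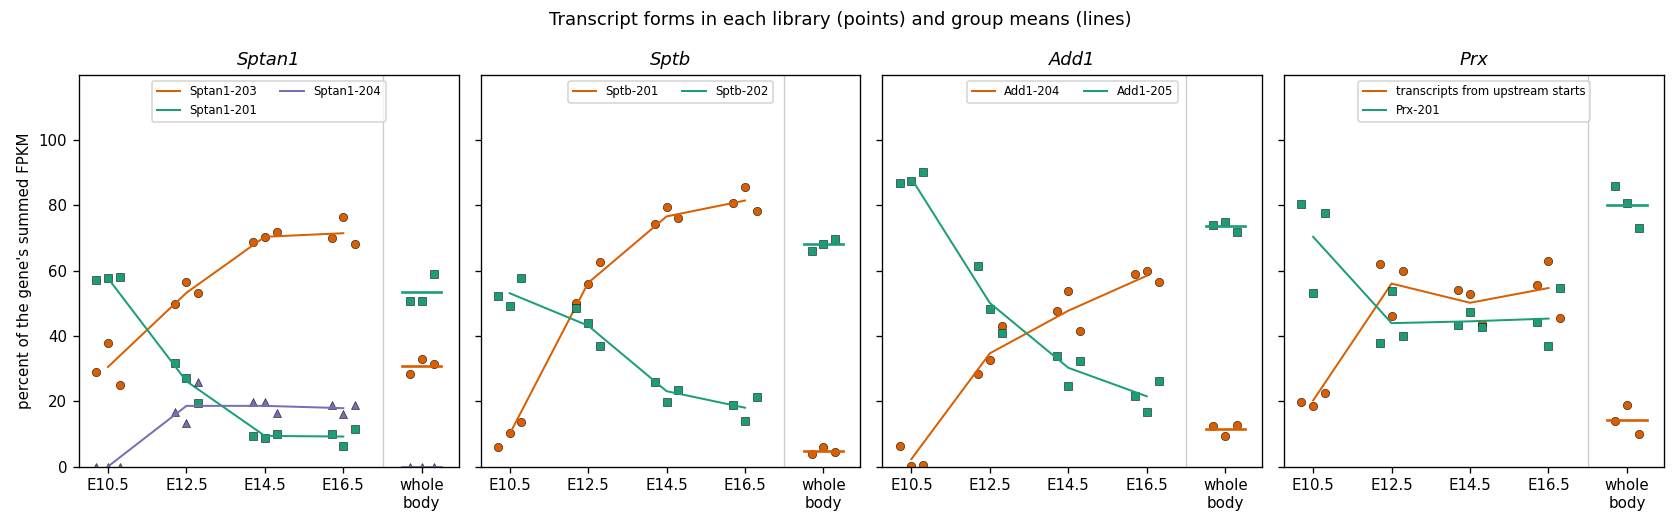
Share of the gene's FPKM (percent) held by single forms of Sptan1, Sptb, Add1 and Prx in each library of the 4 lens stages and whole body; points are libraries and lines join group means of 3. Sptan1-203, Sptb-201, Add1-204 and the Prx forms outside the start group of Prx-201 held more of their gene on average in E12.5, E14.5 and E16.5 lens than in E10.5 lens or in whole body, where a short line marks the mean. The panel labels these Prx forms as from upstream starts, though some have no start position given here.

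The β spectrins rose with the α chain, Sptb by the larger fold. Sptb (chr12:76580488-76710547, minus strand) codes for βI spectrin, the β chain of red cells, brain and muscle. It had 41.6, 21.9 and 23.9 FPKM in E10.5 lens, 401, 451 and 681 in E12.5 lens, 1173, 1397 and 1072 in E14.5 lens, and 1339, 1604 and 1443 in E16.5 lens, against 75.9, 69.5 and 74.2 in whole body. E10.5 lenses were all below whole body and later lenses all above it.

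The log2 fold change of lens over whole body for Sptb was -1.36 ± 0.21 SE in E10.5 lens (adjusted p = 7.02e-05, limma) and 4.30 in E16.5 lens (adjusted p = 8.08e-11), and E16.5 lens was 50.1-fold above E10.5 lens (5.65, adjusted p = 7.41e-12). The E10.5 library with the highest Sptb, replicate 1, also had the highest sum of erythroid markers of that stage, 5146 FPKM, whose part in it was not tested. From E14.5 on the erythroid sum was lower than in whole body (423 to 739 against 7670 to 9801 FPKM in E16.5 lens) while Sptb was higher, and Gata1, Klf1 and Hbb-bh1 were under 1 FPKM in E16.5 lens.

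Among the members' transcripts in the share fit, that of Sptb-201 differed most between E16.5 lens and whole body (76.8 ± 3.71 points, SE, adjusted p = 1.08e-07, limma). Sptb-201 codes for the longer protein, of 2329 residues, from 36 exons. It held 6.08%, 10.1% and 13.8% of the gene in E10.5 lens, 50.2%, 56.0% and 62.6% in E12.5 lens, 74.2%, 79.4% and 76.2% in E14.5 lens, and 80.7%, 85.5% and 78.2% in E16.5 lens, against 3.74%, 6.03% and 4.34% in whole body. In FPKM it stood at 1193 ± 156 in E16.5 lens and 3.42 ± 0.696 in whole body (SD, n = 3 each, log2 fold change 8.08, adjusted p = 6.61e-11, limma over transcripts). Sptb-202 codes for 2137 residues from 32 exons. Its share was 18.0 ± 3.60% in E16.5 lens and 68.1 ± 1.87% in whole body (share fit -50.0 ± 3.81 points, adjusted p = 3.42e-06).

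The shorter form nevertheless rose in level, to 261 ± 40.5 FPKM in E16.5 lens against 49.8 ± 2.18 in whole body (log2 fold change 2.36, adjusted p = 7.39e-07, limma over transcripts). An assembled variant of Sptb-201 held the rest, 0.51% in E16.5 lens, 36.9 ± 7.39% in E10.5 lens and 27.2 ± 2.53% in whole body. The annotated starts of the long and short forms lie 524 bases apart, and the promoter printed above is that of the long form.

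Sptbn1 (chr11:30099395-30268175, minus strand) codes for βII spectrin, the general partner of αII spectrin. It read 199, 225 and 266 FPKM in E10.5 lens, 667, 653 and 1069.9 in E12.5 lens, 1921, 2189 and 1731 in E14.5 lens, and 1971, 2445 and 2016 in E16.5 lens, against 228, 239 and 239 in whole body. The E10.5 lenses overlapped whole body (log2 fold change -0.04 ± 0.17 SE, adjusted p = 0.845, limma), and every later lens lay above it (1.72 in E12.5 lens, 3.04 in E14.5 lens and 3.17 in E16.5 lens, adjusted p = 1.85e-10 for the last). Sptbn1-202 remained its main form, at 72.7 ± 0.75% in E16.5 lens and 83.3 ± 3.82% in whole body. Sptbn1-201, which codes for the same 2363 residues from a start 48397 bases upstream, held 19.7 ± 1.31% in E16.5 lens and 6.33 ± 3.56% in whole body (share fit 13.3 ± 3.11 points, adjusted p = 0.0102).

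Sptb made up 11.5 ± 5.06% of the summed FPKM of Sptb and Sptbn1 in E10.5 lens, 39.1 ± 1.68% in E12.5 lens, 38.4 ± 0.533% in E14.5 lens and 40.6 ± 1.06% in E16.5 lens, against 23.7 ± 1.23% in whole body. The balance between these β chains moved by less than 3 points after E12.5, while both genes went on rising to E14.5. Sptan1 exceeded Sptb by a ratio of 1.4999 ± 0.0655 in E16.5 lens, 14.1 ± 4.46 in E10.5 lens and 3.80 ± 0.368 in whole body (ratio of FPKM values, SD, n = 3).

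In E16.5 lens against whole body, Ank2 had a larger fold than Ank3. Ank2 (chr3:126921612-127499350, minus strand) codes for ankyrin-B, of heart and brain. It had 42.2, 45.2 and 46.7 FPKM in E10.5 lens, 532, 626 and 954 in E12.5 lens, 1261, 1467 and 1235 in E14.5 lens, and 1400.3, 1663 and 1568 in E16.5 lens, against 59.6, 59.6 and 62.5 in whole body. E10.5 lenses lay just under whole body and every later lens library far above it.

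Ank2 had a log2 fold change of lens over whole body of -0.43 ± 0.15 SE in E10.5 lens (adjusted p = 0.0269, limma), a call that was lost without E10.5 replicate 1 or 2 or any 1 whole-body library (adjusted p of 0.0559 to 0.0795). At E16.5 it was 4.65 (adjusted p = 1.04e-12), and E16.5 lens was 34.5-fold above E10.5 lens (5.08, adjusted p = 8.56e-13). The rise sat mostly in assembled variants: an assembled transcript listed at 0 in every E10.5 lens and whole-body library held 23.1% of the gene in E12.5 lens, 34.8% in E14.5 lens and 37.6 ± 1.89% in E16.5 lens (share fit, adjusted p = 2.21e-05 against whole body), and another held 27.6 ± 2.66% in E16.5 lens against 0.69% in whole body (adjusted p = 4.43e-05). The reference forms Ank2-208 and Ank2-201 were the leading ones in whole body, at 32.4 ± 0.28% and 27.4%, and were at 0.90% and 3.41% in E16.5 lens. The transcript matched to Ank2-208 was listed at 5460 bases, against 14305 in the annotation, so its share may not be that of the annotated form. With reference transcripts only, the call on Ank2 in E16.5 lens against whole body was lost (log2 fold change 1.05, adjusted p = 0.0918), as were those on E12.5 lens against whole body (1.03, adjusted p = 0.112) and on E14.5 lens against E12.5 lens (0.24, adjusted p = 0.785). Against E10.5 lens it kept its calls, at 2.92 instead of 3.90 for E12.5 lens and 2.94 instead of 5.08 for E16.5 lens (adjusted p = 0.000653 and 0.000282), so the value depends on the assembled variants.

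Ank3 (chr10:69398773-70027438, plus strand) codes for ankyrin-G, of axon initial segments and the lateral membrane of epithelia. Its libraries read 91.2, 106 and 108 FPKM in E10.5 lens, 83.2, 85.4 and 109.95 in E12.5 lens, 134, 139.8 and 141 in E14.5 lens, and 170.4, 194 and 180.5 in E16.5 lens, against 89.5, 88.2 and 95.4 in whole body. Lens and whole body overlapped at both E10.5 and E12.5 and separated from E14.5 on.

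The log2 fold change of lens over whole body for Ank3 was 0.16 ± 0.10 SE in E10.5 lens (adjusted p = 0.183, limma), 0.02 in E12.5 lens (0.88), 0.60 in E14.5 lens (4.05e-05) and 0.99 in E16.5 lens (1.7e-07), each with its adjusted p. The E14.5 call was lost when crystallins were left out and totals made equal (0.16, adjusted p = 0.0696). The ratio of Ank2 to Ank3 in FPKM was 0.440 in E10.5 lens, 7.47 in E12.5 lens, 9.56 in E14.5 lens and 8.49 in E16.5 lens, against 0.666 in whole body. Within Ank3, the form Ank3-204 was listed at 0 in whole body and held 33.6 ± 1.16% of the gene in E16.5 lens (share fit 33.6 ± 4.09 points, adjusted p = 0.000138). Ank1, of red cells, was not called in E16.5 lens against whole body (log2 fold change -0.60, adjusted p = 0.137, limma). It was called lower after leaving out crystallins and equalising totals (-1.11).

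**Figure D3:**
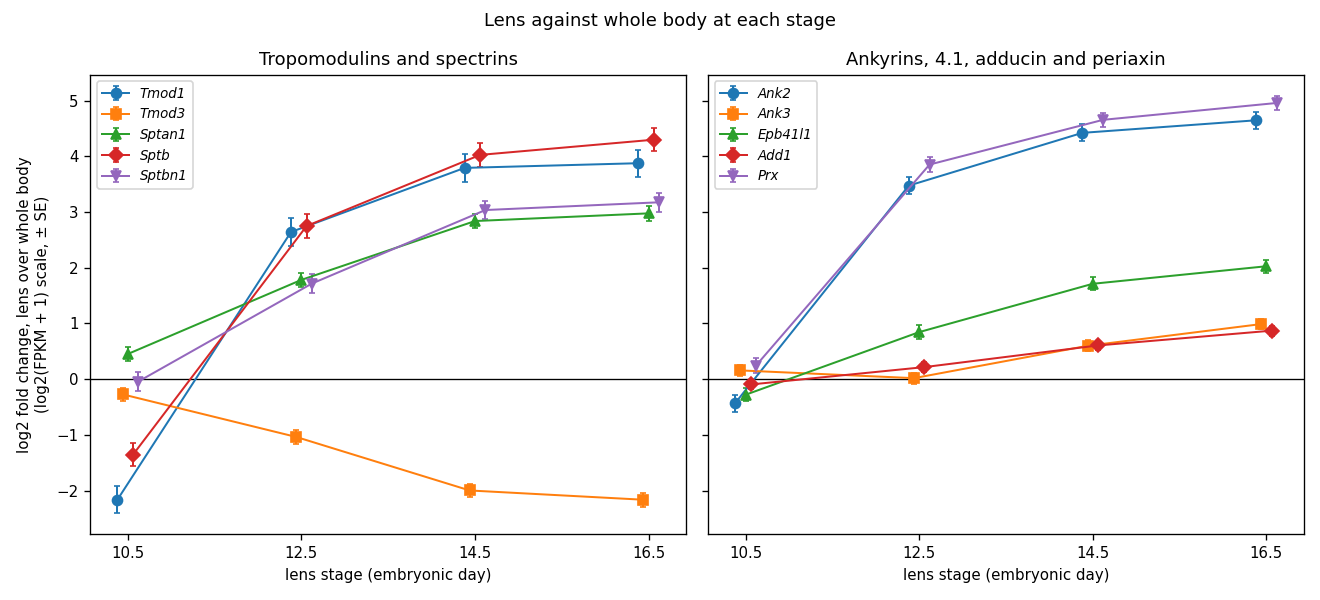
Log2 fold change (log2(FPKM + 1) scale) of each lens stage over whole body for the 10 genes, as value ± SE from the limma fit, with the stage in days on the x axis. Tmod1, Sptb and Ank2 lie below 0 in E10.5 lens and between 2.64 and 3.47 in E12.5 lens, while Tmod3 falls with stage to -2.16 in E16.5 lens. Tmod3, Epb41l1, Add1 and Sptbn1 also lie below 0 in E10.5 lens, at -0.28 to -0.04, without being called.

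Epb41l1 (chr2:156420909-156543214, plus strand) codes for the 4.1N protein, first known from neurons. It had 23.85, 24.3 and 30.4 FPKM in E10.5 lens, 50.2, 57.65 and 66.9 in E12.5 lens, 98.8, 118.9 and 103 in E14.5 lens, and 132, 137 and 129 in E16.5 lens, against 27.5, 34.3 and 34.05 in whole body. E10.5 lens overlapped whole body, and each stage after it lay above the stage before without overlap.

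Its log2 fold change of lens over whole body was -0.28 ± 0.12 SE in E10.5 lens (adjusted p = 0.058, limma), 0.84 in E12.5 lens (1.62e-05), 1.71 in E14.5 lens (4.42e-09) and 2.03 in E16.5 lens (5.62e-10). With reference transcripts only, the E14.5 and E16.5 calls were lost (0.14, adjusted p = 0.731, and 0.72, adjusted p = 0.0797), as was the step to E14.5 from E12.5 (0.25, adjusted p = 0.639), and the E12.5 value turned to -0.11. In that setting Epb41l1 was called lower in E10.5 lens (-1.04, adjusted p = 0.0258, limma). The E10.5 call was also gained with crystallins left out (-0.33, adjusted p = 0.0206), under the replicate block (-0.28, adjusted p = 0.0275) and in some fits without 1 library. Epb41l1-205 held 14.98% of the gene in E16.5 lens against 41.2% in whole body (share fit -26.2 points, adjusted p = 0.0145), and no Epb41l1 transcript was called for its share in E16.5 lens against E10.5 lens.

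Among the 6 other 4.1-family genes tested, 5 were higher in E16.5 lens than in whole body and 1 lower, or 4 and 1 after leaving out crystallins and equalising totals. Epb41l4a stood at 499 FPKM against 22.4 (log2 fold change 4.42) and Epb41l2 had a log2 fold change of 2.96, while Epb41l5 was lower at -0.80.

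Add1 (chr5:34573664-34632308, plus strand) codes for α adducin, the subunit found in most cells. Its libraries read 169.9, 204 and 200.1 FPKM in E10.5 lens, 220.3, 236 and 256 in E12.5 lens, 289.9, 350.4 and 294 in E14.5 lens, and 372, 393 and 355 in E16.5 lens, against 206, 198 and 207 in whole body. The level climbed slowly, with the E10.5 lenses overlapping whole body and the later ones above it.

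The log2 fold change of lens over whole body for Add1 was -0.10 ± 0.09 SE in E10.5 lens (adjusted p = 0.379, limma), 0.22 in E12.5 lens (0.0407), 0.60 in E14.5 lens (1.53e-05) and 0.87 in E16.5 lens (2.74e-07). The E12.5 call was lost without E12.5 replicate 2 or 3, E16.5 replicate 1 or any 1 whole-body library, and with crystallins left out (0.02, adjusted p = 0.767), and the E14.5 call under quantile scaling (0.12, adjusted p = 0.0678).

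The forms of Add1 changed too. Add1-204, which includes the 37-base exon printed above and codes for 632 residues, held 6.24%, 0.054% and 0.585% of the gene in E10.5 lens, 28.4%, 32.6% and 43.0% in E12.5 lens, 47.8%, 53.8% and 41.6% in E14.5 lens and 58.9%, 59.9% and 56.5% in E16.5 lens, against 12.5%, 9.46% and 12.6% in whole body. E16.5 lens thus stood well clear of whole body (share fit 46.9 ± 4.32 points, adjusted p = 1.57e-05) and of E10.5 lens (56.2 points, adjusted p = 1.51e-05).

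Add1-205, which lacks the exon and codes for 735 residues, was at 21.5 ± 4.76% in E16.5 lens and 73.6 ± 1.49% in whole body (-52.1 ± 4.76 points, adjusted p = 1.48e-05). In level it fell to 79.8 ± 13.8 FPKM in E16.5 lens, against 150.0 ± 2.38 in whole body (log2 fold change -0.92, adjusted p = 6.84e-05, limma over transcripts). Summed over the reference transcripts that span it, the exon was present in 6.30 ± 3.22% in E10.5 lens, 44.0 ± 7.71% in E12.5 lens, 62.2 ± 4.52% in E14.5 lens and 71.4 ± 3.001% in E16.5 lens, against 20.4 ± 2.02% in whole body (SD, n = 3).

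Of the 4 other genes of the adducin list, 2 were higher in E16.5 lens than in whole body and 2 lower. Add2, of β adducin, had 519 FPKM in E16.5 lens against 62.5 in whole body (log2 fold change 3.04), and Dmtn, of the actin bundler dematin, had a log2 fold change of 2.48. Add3, of γ adducin, was lower (-0.92), and made up 9.56% of the summed FPKM of Add3 and Add1 in E16.5 lens against 26.8% in whole body. Mpp1, of a red cell membrane scaffold, was lower too (-2.56).

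Prx (chr7:27499324-27520214, plus strand) had the highest fold over whole body of the 10 genes in E16.5 lens. It had 8.93, 9.99 and 9.04 FPKM in E10.5 lens, 96.6, 128 and 156 in E12.5 lens, 218, 241 and 198 in E14.5 lens, and 277, 273 and 259 in E16.5 lens, against 7.40, 7.27 and 8.50 in whole body. The E10.5 lenses stood just above whole body, and from E12.5 on the lens lay far above both.

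The log2 fold change of Prx over whole body was 0.24 ± 0.13 SE in E10.5 lens (adjusted p = 0.129, limma), 3.85 in E12.5 lens, 4.65 in E14.5 lens and 4.96 in E16.5 lens (adjusted p = 9.31e-14). E16.5 lens exceeded E10.5 lens by 28.9-fold (4.71, adjusted p = 3.65e-13). Schwann and glial markers did not give the same picture as a list: 7 of 9 were measured, 1 was higher and 6 were lower in E16.5 lens than in whole body, and Sox10, Foxd3 and Cdh19 were listed at 0 in all 3 E16.5 lens libraries. Their sum of 512 to 583 FPKM in E16.5 lens, against 90.9 to 94.6 in whole body, was mostly Pmp22, at 540 FPKM.

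Part of Prx came from another start in the later lens. Prx-202 starts 8482 bases upstream of Prx-201, and each codes for 1391 residues, with annotated coding segments that differ in part. It had 0.01, 0.00 and 0.00 FPKM in E10.5 lens, 35.7, 19.7 and 44.05 in E12.5 lens, 50.9, 52.55 and 42.3 in E14.5 lens, and 75.4, 91.4 and 51.9 in E16.5 lens, and was listed at 0 in all whole-body libraries. Its share in E16.5 lens was 26.9 ± 6.76% (share fit, adjusted p = 0.00205 against whole body and 0.0048 against E10.5 lens).

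Some Prx forms outside the start group of Prx-201 have no start position given here. Together, all forms outside that group had 148 ± 27.4 FPKM in E16.5 lens against 1.08 ± 0.269 in whole body, and 1.88 ± 0.138 in E10.5 lens (SD, n = 3 each). In E10.5 lens and whole body this sum was nearly all Prx-203, a form of 148 residues that was listed at 0 from E12.5 on. Prx-201 held 45.3 ± 8.79% in E16.5 lens and 80.05 ± 6.49% in whole body (share fit -34.7 ± 7.20 points, adjusted p = 0.00514). Its own level was 122 ± 20.2 FPKM against 6.16 ± 0.251, so Prx-201 and Prx-202 were both higher in the later lens.

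In E12.5 lens against E10.5 lens, 8 of the 10 were higher and 1, Tmod3, lower, beside 29.5% and 26% of all genes (7 and 0 by 2-fold, beside 8.53% and 7.34%). Sptb was 17.5-fold, Ank2 15.8-fold and Prx 13.6-fold above the E10.5 level, and Ank3 was not called (log2 fold change -0.14, adjusted p = 0.235, limma). In E14.5 lens against E12.5 lens, 9 were higher and 1 lower, beside 21.2% and 22.4% of all genes (4 and 0 by 2-fold, beside 4.09% and 7.78%), by 0.39 (Add1) to 1.32 (Sptbn1) on the log2 scale for the 9. After leaving out crystallins and equalising totals, the share of called genes that were higher in this step was 21.5%, against 48.7% with the deposited scaling, and the members gave 8 higher and 1 lower.

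In E16.5 lens against E14.5 lens only Ank3 was called (0.39, adjusted p = 0.0188, limma), beside 5.97% of all genes called higher and 4.03% lower (0 and 0 by 2-fold, beside 1.6% and 0.289%), and the other 9 had log2 fold changes between -0.17 (Tmod3) and 0.31 (Epb41l1). The Ank3 call was lost without E14.5 replicate 1 (0.37, adjusted p = 0.0632) or E16.5 replicate 2 (0.34, adjusted p = 0.0854). Epb41l1, Add1 and Prx were also higher in every E16.5 library than in every E14.5 library, without passing the test. The steps share libraries with their neighbours, and their values are given side by side without a test between them.

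At the transcript level, 95 of the 101 transcripts passed the low-value filter. In E16.5 lens against whole body 46 were called higher and 10 lower, beside 22.2% and 22.1% of all transcripts, and against E10.5 lens 47 and 11, beside 18.2% and 17%. By share of the gene, 17 of 91 transcripts were higher and 22 lower in E16.5 lens than in whole body, beside 9.48% and 9.89% of all transcripts in that fit, and 16 were higher and 12 lower than in E10.5 lens, beside 4.52% and 4.84%. The count against E10.5 lens rested in part on the E10.5 libraries: with replicate 2 as the only one, 7 were higher. Unequal fold changes among a gene's transcripts were called for 9 of the 9 members with several transcripts, beside 47.8% of all such genes (33% against E10.5 lens), but the call for Tmod1 was lost with a pseudocount of 0.1 (F 0.79, adjusted p = 0.588, limma diffSplice).

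Counts of the other lists are read beside the 36.8% of all genes called higher and 43.4% called lower in E16.5 lens against whole body. Of 9 genes of short actin filaments, 3 were higher and 3 lower in E16.5 lens than in whole body, shares near those of all genes. After leaving out crystallins and equalising totals, where 28.0% of all called genes were higher, the counts were 0 and 7, and Actg1 (cytoplasmic γ actin) turned to -0.20 instead of 0.32 and Capzb (actin capping protein) to -0.02 instead of 0.50. Tpm1 and Tpm4, of tropomyosins that lie along actin, were lower under both (-2.32 and -2.21 with the deposited scaling). Of 12 membrane partners of the net, 3 were higher and 6 lower, again near the shares of all genes. Nrcam, an adhesion protein that binds ankyrin, had 825 FPKM in E16.5 lens against 35.3 in whole body (4.50), and Cadm1 had a log2 fold change of 2.49, while the red cell anion exchanger Slc4a1 had 1.28 FPKM against 209 (-6.71). Of 9 genes of periaxin partners and the cell cortex, 4 were higher, among them Ezr, of the actin linker ezrin, at 1165 against 71.7 FPKM, and 4 were lower, among them Ahnak (-1.96) and Utrn, of utrophin (-1.32).

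Of the 32851 promoter windows of the RefSeq table, 14 belonged to 8 of the 10 genes. CACCC was found in 10 of these 14, of 7 genes, beside 52.0% of all windows, and AACAAT in that of Sptb only, beside 9.42%. TGCTGA (Maf factors), GAANNTTC (heat shock factors) and TATAAA were found for Ank2 only, beside 16.1%, 6.69% and 12.4%, and GATAA (Gata factors) for Sptbn1 and Ank2, beside 22.6%. The printed Prx window has a GC content of 56.4% and that of Sptb 65.2%, beside a median of 52.4% over all windows. A match describes letters and not binding.

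Over the 12 lens libraries the genes most like each member by Pearson r of log2(FPKM + 1) were Prox1 for Tmod1 (0.998) and for Sptb (0.998), Osbp2 and Mip for Prx (both 0.999), Sfrp1 for Ank2 (0.9996), Arhgap31 and St18 for Sptan1 (both 0.998), Kif26b for Sptbn1 (0.998) and Epb41l1 (0.997), Epb41 for Add1 (0.993), Usp47 for Ank3 (0.975) and Tuba1c for Tmod3 (0.997). Among the members the highest was Ank2 with Prx (0.999) and the lowest Tmod3 with Sptan1 (-0.980), and Tmod1 with Ank3 gave 0.564. The libraries fall into 4 stages, so these values describe shared stage courses.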

How the data were processed

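The deposited values were FPKM per transcript, for which the authors name TopHat2 2.0.9, Cuffnorm, Cufflinks and Trimmomatic on mm10, per the submitters' processing notes; order, scaling and depth are not given in the sources used here, and the division of reads among transcripts is Cufflinks' estimate. From these, FPKM were summed per symbol without 172 class x transcripts (antisense overlaps). Genes reaching 1 FPKM in 3 or more libraries were kept, and 3 genes listed at 0 beside a replicate of at least 50 FPKM (Cryaa, Cryba1, Nufip2) left out. limma 3.58.1 in R 4.3.3 fitted log2(FPKM + 1), 1 mean per group, 15 libraries, trended eBayes, 10 residual degrees of freedom, with Benjamini-Hochberg adjustment over 14532 genes or 46432 transcripts. Transcript shares were fitted likewise; this fit, and that with replicate 2 as the only E10.5 library, were added after the data were seen. The fits were tested on simulated data. The 10 genes and the lists were chosen with earlier results of these data known. Named were all 10, their transcripts over 10% of the gene, up to 2 called genes from each end of each family list, the 2 highest of each marker list where relevant, and the 2 most alike genes per member; some are summarised by counts, and a few are left unreported. Exons come from GENCODE vM21 (54 of 60 reference transcripts had the same spliced length), promoters from RefSeq; Tmod3 and Ank3 had no promoter entry. Alternatives were a pseudocount of 0.1, no filter, 3 rescalings, reference transcripts only, a replicate block, compared groups only, no trend and leaving out each library. The replicate block was an alternative only, since the labels do not say that numbers mark a shared litter or day. Figures used matplotlib 3.10.9 in Python 3.11.15.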

Additional observations from a re-analysis of the deposited data

Results flagged for a closer look

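For Tmod1, Sptb and Ank2 the lens-over-body effect differed in direction between stages, and the difference was tested by the stage contrast of the same limma fit, in which whole body cancels. Tmod1 was lower than whole body in E10.5 lens (log2 fold change -2.16) and higher in later lens, and the effects differed by 4.80 between E12.5 and E10.5 and by 6.04 between E16.5 and E10.5. For Sptb the E10.5 effect was -1.36, and the differences were 4.104 at E12.5 and 5.65 at E16.5. For Ank2 the E10.5 effect was -0.43, and the differences were 3.90 and 5.08, or 2.92 and 2.94 with reference transcripts only.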

How the results depend on the processing

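Depth is unknown, so low values such as Tmod1 at E10.5 carry no counting interval, and transcript shares carry the assembler's own error. Of the members' values under all alternatives, 2366 kept direction and side of the threshold, 31 lost and 22 gained a call, and 13 reversed. A pseudocount of 0.1 gave 90 genes 2-fold lower in E16.5 against E14.5 lens (42 in the text's fit, as in the brackets that follow).

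Crystallins left out and totals made equal gave, against whole body, 5 members lower at E10.5 (3), Ank3 at E12.5 at -0.17 (0.02), 3408 genes higher at E14.5 (5187) and 1551 2-fold (2390), and 3398 at E16.5 (5348) and 1654 2-fold (2688). Between stages it gave 2 members lower in E12.5 against E10.5 (1); 1618 genes higher (3088), 5920 lower (3258), 2 members 2-fold higher (4) and 1 2-fold lower (0) in E14.5 against E12.5; 1231 genes lower (586) and Tmod1 at -0.0004 (0.08) in E16.5 against E14.5; and 3418 genes higher (5404), 1577 2-fold (2493) and 12235 transcripts lower (7898) in E16.5 against E10.5. Quantile scaling gave 1528 genes 2-fold higher (942) and 3 members higher (1) at E10.5, Ank3 at -0.077 at E12.5, 2 members lower in E12.5 against E10.5, 1 member 2-fold higher in E14.5 against E12.5 (4), and Sptan1 at -0.043 and Sptbn1 at -0.044 in E16.5 against E14.5. Median ratios gave Ank3 at -0.011 at E12.5 and 2 members higher in E16.5 against E14.5 (1). The cause of these moves was not tested.

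Fits of the compared groups alone gave 387 genes higher (868), 134 lower (586) and 21 2-fold lower (42) in E16.5 against E14.5; against E10.5, 7 members' transcripts lower (11), and by share 687 transcripts higher (1740), 547 lower (1864) and 5 members' transcripts lower (12), with fewer residual degrees of freedom. Reference transcripts only gave 4 members 2-fold lower at E10.5 (2), 5 higher at E12.5 (8), Ank3 at -0.039 and Epb41l1 at -0.11 there (0.84), and, in E16.5 against E14.5, 492 genes higher (868), 333 lower (586) and Ank2 at -0.22 (0.23). With replicate 2 as the only E10.5 library, 0 members were higher than whole body (1), and by share 942 transcripts (1740) and 7 members' transcripts (16) were higher in E16.5 against E10.5.

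Leaving out each library in turn gave Ank3 at E12.5 against whole body at -0.11 to 0.090, Sptbn1 at E10.5 at -0.15 to 0.055, and Tmod1 in E16.5 against E14.5 at -0.0011 to 0.17. Members higher and lower at E10.5 ranged over 1 to 2 and 2 to 5 (2 and 5 without E12.5 replicate 1), members 2-fold lower at E12.5 over 0 to 1 (0 without E12.5 replicate 2 or 3), members lower in E12.5 against E10.5 over 1 to 2 (2 without E12.5 replicate 3), and members 2-fold higher and lower in E14.5 against E12.5 over 2 to 5 (2 without E12.5 replicate 1) and 0 to 1 (1 without E12.5 replicate 2 or 3). In E16.5 against E14.5, 514 to 1016 genes were higher, 293 to 712 lower, and 0 to 2 members higher (0 without E14.5 replicate 1 or E16.5 replicate 2; 2 without E10.5 replicate 1, E12.5 replicate 1 or E14.5 replicate 2). In E16.5 against E10.5, 7 to 12 members' transcripts were lower (7 without E16.5 replicate 1 or 3), and by share 1098 to 2165 transcripts (1098 without E16.5 replicate 2).

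Replicate numbers did not pair the libraries: same-numbered libraries correlated at r of -0.0946 to 0.2373 over 30 pairs, 4 of them over 0.1, and 5 of 15 libraries correlated best with their own number. The replicate block gave 9 members higher and 1 lower in E16.5 lens against whole body, and moved 1 member count, with 4 lower at E10.5 (3).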
